A study of Mus musculus with 8 samples.

Results

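The genes described here are 38 genes of mitosis and the spindle checkpoint, measured by RNA sequencing in mouse embryonic stem cells. They were picked by symbol, from known mitotic genes, with earlier results of these data known. All 38 were found among the 48440 genes of the deposited table, and all 38 were among the 17739 genes with enough reads to test. The libraries form 4 groups of 2: knock-out cells (CTNNB1-/-) with CHIR99021, knock-out cells with DMSO, parental cells (CTNNB1+/+) with CHIR99021, and parental cells with DMSO. CTNNB1 encodes β-catenin, which carries the canonical Wnt signal, and CHIR99021 inhibits GSK3, a kinase that marks β-catenin for destruction. All cells were of the 129/Ola background and grew without feeders on gelatin in medium with serum. They received 3 μM CHIR99021 or 0.3 μl/ml DMSO, the vehicle, for 72 hours. There was 1 knock-out line and 1 parental line, so the effect of the deletion cannot be told apart from any other difference between the lines. Whether the 2 libraries of a group came from separate cultures is not said in the labels. The p-values therefore rest on the spread from library to library, which may be technical.

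Libraries held 23650572 to 27680649 estimated reads in genes. Ctnnb1 itself was at 8.70 and 9.42 CPM (reads scaled to a common library total) in knock-out cells with CHIR99021 and at 7.98 and 10.7 CPM with DMSO, against 813 and 843 CPM in parental cells with CHIR99021 and 887 and 906 CPM with DMSO, which fits the labels. Of 8 embryonic stem cell markers all 8 were tested. Their summed level was 5240 CPM with CHIR99021 and 5510 to 5640 CPM with DMSO in knock-out cells. In parental cells it was 5200 to 5370 CPM with CHIR99021 and 5730 to 5750 CPM with DMSO. Pou5f1 was the highest, and the sum does not show single markers. Their log2 fold changes with CHIR99021 were -0.44 to 0.01 in knock-out cells and -0.87 to 0.12 in parental cells. Knock-out over parental, they were -0.18 to 0.58 with CHIR99021 and -0.20 to 0.15 with DMSO. Of 8 fibroblast markers 3 were tested. The summed level of the 8 was 18.7 to 20.3 CPM with CHIR99021 and 17.5 to 18.1 CPM with DMSO in knock-out cells, and 14.9 to 15.4 CPM with CHIR99021 and 12.4 to 15.3 CPM with DMSO in parental cells, while Dcn, Lum and Postn were at 0 in all 8 libraries. Of the 3 tested, Thy1 alone passed an adjusted p of 0.05 in any comparison, higher with CHIR99021 in parental cells (log2 fold change with its standard error, 0.66 ± 0.13) and higher in knock-out than in parental cells with CHIR99021 (0.38 ± 0.12) and with DMSO (0.87 ± 0.13). Between the lines with CHIR99021 it did not pass with DESeq2 (adjusted p = 0.258), with no filter beyond 1 read (0.0558) and without parental DMSO replicate 2 (0.0514) or any 1 of the 4 treated libraries (0.061 to 0.228).

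Entry into mitosis is driven by CDK1 bound to cyclins A and B. Aurora and Polo-like kinases then build the spindle, and the spindle checkpoint holds the cell before anaphase until every kinetochore is attached to microtubules. When the checkpoint is satisfied, CDC20 switches on the anaphase-promoting complex, a ubiquitin ligase that marks securin and cyclin B for destruction. Many of these genes are transcribed mainly in G2 and mitosis, through promoters that hold a cell cycle genes homology region (CHR), bound by MuvB complexes, and CCAAT boxes, bound by NF-Y. Embryonic stem cells divide rapidly with a short G1 phase.

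Promoter sequences are shown because they bear on whether the members share the letters of such elements. RefSeq windows of 300 bases on GRCm38.p6, from 250 bases before to 50 after each start, were matched for 33 of 38 members, in 36 windows. Those of Aurkb, Ccna2, Cdc25c, Kif20a and Tpx2 were not matched. The CHR letters searched were TTTGAA, its reverse complement TTCAAA, and TTCGAA, which reads the same on both strands and was counted once. The CCAAT letters were CCAAT and its reverse complement ATTGG, and a match could share letters with another. CHR letters were in 27 of the 36 member windows, and in 6316 of all 32851 windows (19.2%). CCAAT letters were in 77.8% of the member windows and 37.4% of all windows. Both were in 69.4% of the member windows and 7.52% of all windows. A match is a run of letters and was not shown here to be bound. The 250 bases before the start of 5 members follow, each 5′ to 3′ on the gene's own strand, with matched letters in capitals. Top2a (chr11:99024190-99024439, minus strand), Kif11 (chr19:37376132-37376381, plus strand) and Cdc20 (chr4:118437344-118437593, minus strand) hold both kinds of letters. Nusap1 (chr2:119618048-119618297, plus strand) and Pttg1 (chr11:43425982-43426231, minus strand) hold neither, as do the windows of Birc5, Knstrn, Mad2l1 and Nuf2. The start used for Pttg1 is that of RefSeq. In GENCODE the gene begins further upstream, at chr11:43426251, so its printed bases lie inside the gene. Bases before the GENCODE start of Pttg1 were not searched. The windows of Kif2c and Cdca8 also lie inside their GENCODE genes.
Top2a: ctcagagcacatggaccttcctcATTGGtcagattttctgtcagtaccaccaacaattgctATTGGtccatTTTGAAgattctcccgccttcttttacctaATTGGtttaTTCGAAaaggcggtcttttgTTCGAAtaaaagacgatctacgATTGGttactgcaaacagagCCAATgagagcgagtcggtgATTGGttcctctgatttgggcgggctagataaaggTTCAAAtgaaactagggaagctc
Kif11: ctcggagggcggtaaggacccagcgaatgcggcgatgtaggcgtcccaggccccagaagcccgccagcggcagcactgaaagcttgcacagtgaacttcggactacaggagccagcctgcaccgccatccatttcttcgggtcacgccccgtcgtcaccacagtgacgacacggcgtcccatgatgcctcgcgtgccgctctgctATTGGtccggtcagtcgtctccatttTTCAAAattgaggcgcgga
Cdc20: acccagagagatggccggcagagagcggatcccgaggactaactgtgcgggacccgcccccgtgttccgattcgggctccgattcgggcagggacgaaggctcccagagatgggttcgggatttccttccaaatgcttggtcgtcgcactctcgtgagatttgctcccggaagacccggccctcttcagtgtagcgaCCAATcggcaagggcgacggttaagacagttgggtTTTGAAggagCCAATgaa
Nusap1: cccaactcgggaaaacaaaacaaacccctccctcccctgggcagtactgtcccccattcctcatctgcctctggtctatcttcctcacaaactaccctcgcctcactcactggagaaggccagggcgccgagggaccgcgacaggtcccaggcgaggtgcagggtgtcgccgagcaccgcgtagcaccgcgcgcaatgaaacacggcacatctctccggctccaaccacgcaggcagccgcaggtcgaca
Pttg1: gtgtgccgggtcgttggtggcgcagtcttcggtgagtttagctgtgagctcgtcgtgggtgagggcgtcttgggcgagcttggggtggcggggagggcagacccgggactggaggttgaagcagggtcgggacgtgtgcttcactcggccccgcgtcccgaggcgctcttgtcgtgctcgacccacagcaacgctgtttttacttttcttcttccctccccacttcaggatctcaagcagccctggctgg

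**Figure D1:**
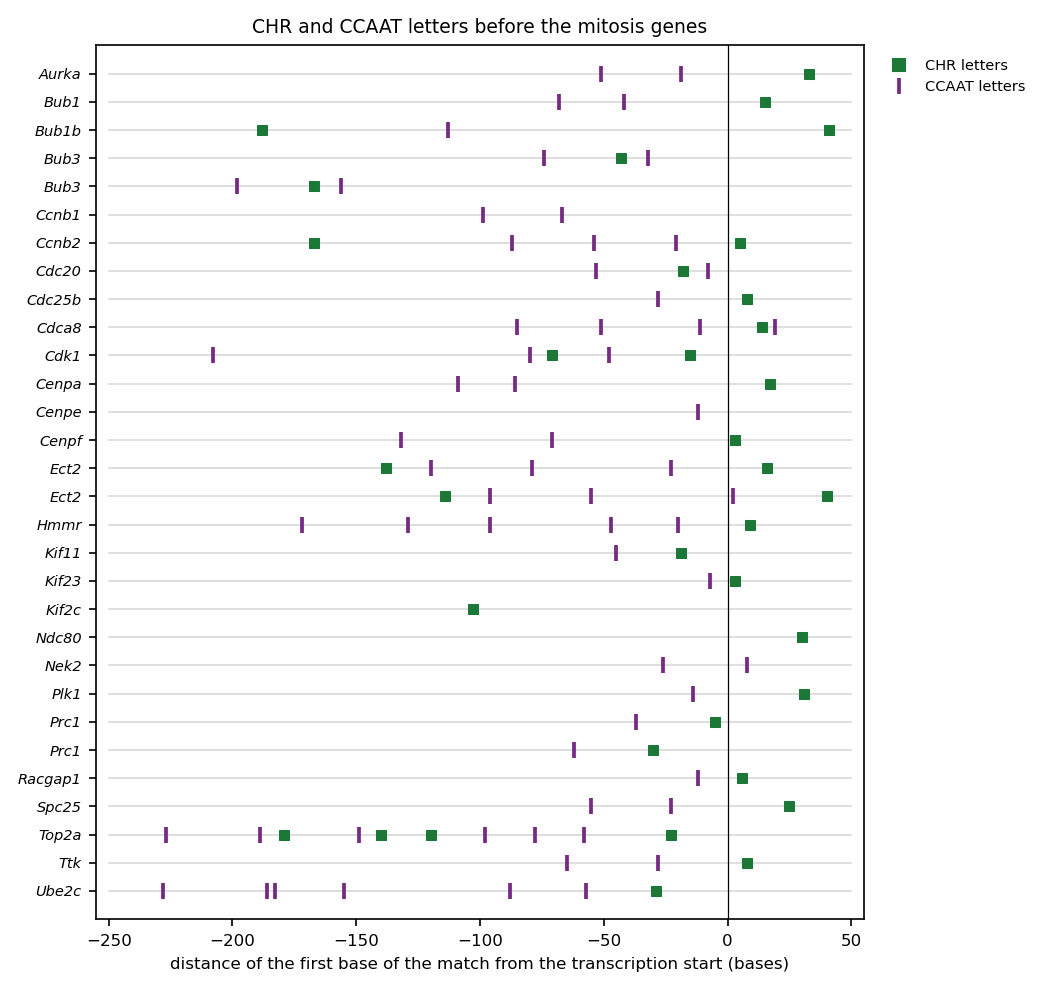
Position of CHR letters (green squares) and CCAAT letters (purple bars) in the 30 member windows that hold either, by the distance in bases of the first matched base from the start; genes with more than 1 RefSeq start have a line for each. CCAAT letters lie mostly before the start and CHR letters on either side of it, and the windows of Nusap1 and Pttg1, with no match, are not drawn.

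With CHIR99021, 9 of the 38 members fell in parental cells and 1, Pttg1, rose. Levels of single genes are CPM after TMM scaling, which is not per length, so they are compared between groups and not between genes. The summed marker levels above were scaled by library totals alone, without TMM. Fold changes are log2, CHIR99021 over DMSO or knock-out over parental, with the standard error (SE) of the fit, and a gene is called where edgeR's quasi-likelihood test, with Benjamini-Hochberg adjustment over all 17739 genes, gave an adjusted p under 0.05. Of all genes 19.4% were called in parental cells, 10.3% lower and 9.1% higher. Members were called lower in 23.7% of cases. The members are well expressed, with means of 21.0 to 733.8 CPM, and of the 7399 tested genes of at least 20 CPM, a level chosen after those of the members were seen, 14.7% were called lower. The members' median log2 fold change was -0.08, against 0.0040 for all genes, and 31 of 38 were below 0, against 49.3% of all genes. The called falls were small, between -0.13 and -0.39. Of the 8 stem cell markers 6 fell in the same comparison, with a list median of -0.18, and their part in the members' values was not tested. In RNA from whole cultures, fewer cells in mitosis and less mRNA per mitotic cell cannot be told apart. Where libraries of 2 groups are said not to overlap, this only describes their values and adds no support to a call. In parental cells it also held for members that were not called, such as Ccnb1, Plk1 and Birc5. The share of all genes without overlap was not computed.

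The largest fall in mRNA was in a gene whose protein builds the spindle. Nusap1, which binds and bundles microtubules near chromosomes, was at 97.0 and 104 CPM with CHIR99021, against 133 and 130.3 CPM with DMSO. Both treated libraries lay below both vehicle libraries, and the log2 fold change was -0.39 ± 0.05 (adjusted p = 0.000108), a ratio of 0.763. Kif11, the kinesin that slides spindle microtubules apart, was at 203 and 221 CPM with CHIR99021, against 261 and 259.6 CPM with DMSO. Its 2 groups did not overlap either, and it fell by 0.30 on the log2 scale (adjusted p = 0.00144). Tpx2, which activates Aurora A and nucleates microtubules, was at 274 and 276 CPM with CHIR99021, against 312 and 309.5 CPM with DMSO, with no overlap and a log2 fold change of -0.18 ± 0.03 (adjusted p = 0.00421). Hmmr, a spindle pole protein, and Kif2c, a kinesin that takes microtubules apart, were not called, at -0.04 ± 0.04 and -0.05 ± 0.04.

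Of 5 central spindle and cytokinesis genes 3 fell, all 3 of them parts of the machinery that places the cleavage furrow. Kif23, the kinesin of the centralspindlin complex, was at 89.3 and 90.7 CPM with CHIR99021, against 110.2 and 112 CPM with DMSO. Racgap1, its partner, was at 154 and 158 CPM with CHIR99021, against 179.8 and 176 CPM with DMSO. Ect2, the exchange factor that centralspindlin brings to the midzone to activate RhoA, was at 182 and 197 CPM with CHIR99021, against 232 and 228 CPM with DMSO. In each of these 3 genes the treated libraries lay below the vehicle libraries. Their log2 fold changes were -0.30 ± 0.04 for Kif23, -0.28 ± 0.05 for Ect2 and -0.19 ± 0.04 for Racgap1 (adjusted p = 0.000325, 0.00118 and 0.00493). Racgap1 was not called without parental CHIR99021 replicate 1 (adjusted p = 0.0586). Prc1, which crosslinks antiparallel microtubules in the midzone, was at 147 and 153 CPM with CHIR99021, against 163 and 159.9 CPM with DMSO, and was not called at -0.11 ± 0.04 (adjusted p = 0.0972). Kif20a, another midzone kinesin, lay above 0 at 0.07 ± 0.04 and was not called.

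Top2a, the topoisomerase that untangles sister chromosomes, was at 652 and 698 CPM with CHIR99021, against 837 and 793 CPM with DMSO. The groups did not overlap, and the log2 fold change was -0.27 ± 0.04 (adjusted p = 0.000896). Cenpf, a large kinetochore protein of G2 and mitosis, was at 255 and 267 CPM with CHIR99021, against 306 and 287 CPM with DMSO. It fell by 0.18 on the log2 scale (adjusted p = 0.0117), but was not called without parental DMSO replicate 1 (0.12) or without parental CHIR99021 replicate 1 (0.113). The other 6 kinetochore and centromere genes, Cenpa, Cenpe, Ndc80, Nuf2, Spc25 and Knstrn, were not called, at -0.13 to 0.02.

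The checkpoint genes all lay a little below 0 and 1 of 5 was called. Bub1b, which encodes BubR1, an inhibitor of CDC20, was at 366 and 373 CPM with CHIR99021, against 402 and 407 CPM with DMSO. Although the libraries did not overlap, its log2 fold change was -0.13 ± 0.04 (adjusted p = 0.0286), and leaving out any 1 of the 4 parental libraries lost the call, with adjusted p of 0.0751 to 0.16. Bub1, the checkpoint kinase at the kinetochore, was at 147 and 157 CPM with CHIR99021, against 169 and 161 CPM with DMSO, and was not called (-0.12 ± 0.04, adjusted p = 0.087). Bub3, Mad2l1 and Ttk were at -0.04, -0.08 and -0.09. The 6 cyclin and CDK1 switch genes were at -0.10 (Ccna2) to 0.04 (Cdk1), and the 6 mitotic kinase and chromosomal passenger genes at -0.10 (Plk1) to -0.02 (Aurka). edgeR, DESeq2 and limma-voom called 0 of these 12, and 1, Ccna2, had an unadjusted p under 0.05.

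Pttg1, which encodes securin, the inhibitor of separase, was at 33.2 and 32.8 CPM with CHIR99021, against 24.5 and 27.5 CPM with DMSO. Its treated libraries lay above its vehicle libraries, the one called rise among the members, at 0.34 ± 0.07 on the log2 scale (adjusted p = 0.00407, a ratio of 1.27). Without parental DMSO replicate 1, the lower of the vehicle libraries, adjusted p was 0.0551. The other anaphase genes, Cdc20 and Ube2c, were not called in parental cells, at -0.04 ± 0.05 and -0.08 ± 0.06.

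**Figure D2:**
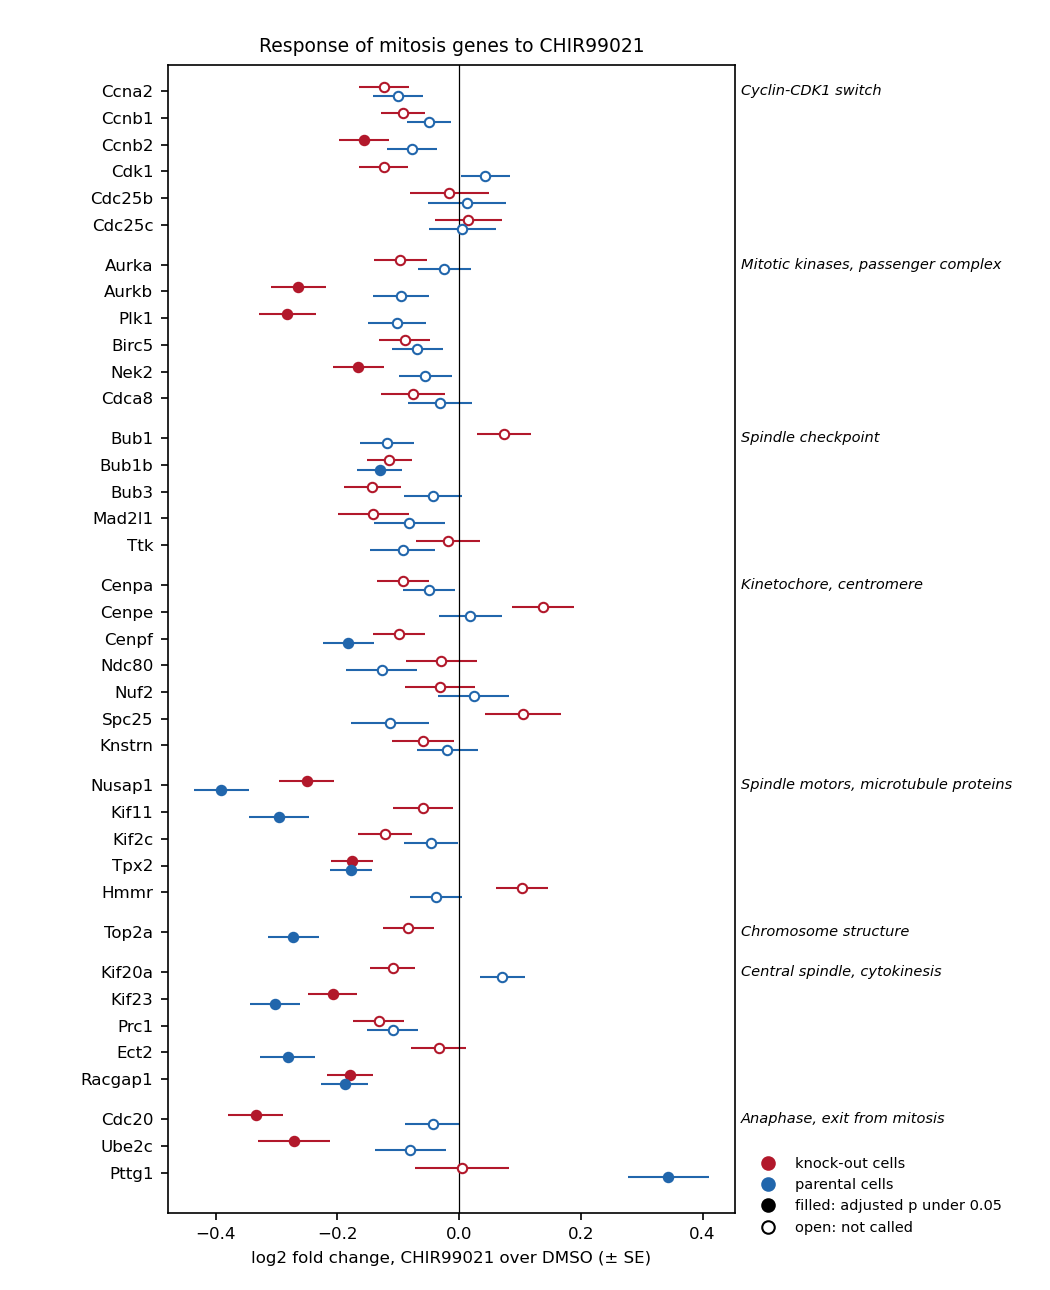
Log2 fold change, CHIR99021 over DMSO, of the 38 members by role, in knock-out cells (red) and parental cells (blue), with the SE of the fit; filled points have an adjusted p under 0.05. Points lie mostly left of 0 in both lines, and Nusap1, Tpx2, Kif23 and Racgap1 are filled in both.

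In knock-out cells, which lack β-catenin, 10 of 38 members fell with CHIR99021 and 0 rose by edgeR. Of all genes 7.06% were called in this comparison, 4.18% lower and 2.88% higher. The members were called lower in 26.3% of cases, beside 7.72% of genes of at least 20 CPM. DESeq2 and limma-voom also called 0 higher, and 2 members were higher at an unadjusted p under 0.05. The median of the members was -0.10, and 32 of 38 were below 0, against 50.7% of all genes. Of the 8 stem cell markers 2 fell, with a list median of -0.13, and their part in the members' values was not tested. The comparison shares no library with that in parental cells.

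Cdc20 had the smallest p of the 38 members. It was at 225 and 216 CPM with CHIR99021, against 287 and 269 CPM with DMSO, with no overlap and a log2 fold change of -0.33 ± 0.05 (adjusted p = 0.00189). Ube2c, the ubiquitin-conjugating enzyme of the anaphase-promoting complex, was at 128 and 123 CPM with CHIR99021, against 162 and 141 CPM with DMSO, and fell by 0.27 on the log2 scale (adjusted p = 0.0211). Both genes had their treated libraries below their vehicle libraries, and for Ube2c the vehicle libraries lay further apart than the treated ones. Leaving out knock-out DMSO replicate 1 or either treated library lost the call of Ube2c, with adjusted p of 0.148, 0.0828 and 0.152, while Cdc20 stayed called under every alternative run.

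Plk1, the Polo-like kinase that drives spindle assembly and mitotic exit, was at 145 and 148 CPM with CHIR99021, against 187 and 169.8 CPM with DMSO. Aurkb, the kinase of the chromosomal passenger complex, was at 63.0 and 61.0 CPM with CHIR99021, against 75.0 and 73.9 CPM with DMSO. Nek2, a centrosome kinase, was at 152 and 154 CPM with CHIR99021, against 178 and 165 CPM with DMSO. None of these 3 kinases overlapped between treated and vehicle libraries, and the log2 fold changes were -0.28 ± 0.05 for Plk1, -0.26 ± 0.05 for Aurkb and -0.17 ± 0.04 for Nek2 (adjusted p = 0.00599, 0.00702 and 0.0407). Plk1 was not called without knock-out CHIR99021 replicate 1 (0.0639), Aurkb without knock-out CHIR99021 replicate 2 (0.0858), and Nek2 without any 1 of 7 of the 8 libraries (0.0613 to 0.266), all but knock-out DMSO replicate 2, or in a fit of the knock-out libraries alone (0.0881). Aurka, Birc5 (survivin) and Cdca8 (borealin) were below 0 and not called, at -0.10, -0.09 and -0.08.

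Spindle and central spindle genes were called here too. Nusap1 was at 87.4 and 87.7 CPM with CHIR99021, against 102 and 106 CPM with DMSO. Kif23 was at 92.9 and 96.2 CPM with CHIR99021, against 108 and 110.0 CPM with DMSO. The treated libraries of both lay below the vehicle libraries, with log2 fold changes of -0.25 ± 0.05 for Nusap1 and -0.21 ± 0.04 for Kif23 (adjusted p = 0.00977 and 0.013). Tpx2 was at 242 and 244 CPM with CHIR99021, against 277 and 272 CPM with DMSO, and Racgap1 at 160.5 and 158 CPM with CHIR99021, against 181 and 179 CPM with DMSO. Neither overlapped, and they fell by 0.18 (Tpx2) and 0.18 (Racgap1) on the log2 scale (adjusted p = 0.0141 and 0.0186). These 4 genes were each called in both lines, which is 44.4% of the members lower in parental cells and 40.0% of those lower in knock-out cells. Over all genes the same shares were 23.3% of 1827 and 57.3% of 742, with 425 genes lower in both lines, so nothing particular to the members is read from them. In knock-out cells all 4 lost the call when either treated library was left out, with adjusted p of 0.0743 and 0.0844 for Nusap1, 0.113 and 0.0683 for Kif23, 0.101 and 0.0931 for Tpx2, and 0.0936 and 0.141 for Racgap1. Without knock-out DMSO replicate 1, adjusted p was 0.0582 for Kif23, 0.0856 for Tpx2 and 0.106 for Racgap1.

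Among the cyclin genes, Ccnb2, a B-type cyclin, was at 105 and 102 CPM with CHIR99021, against 114 and 117 CPM with DMSO. It was called at -0.16 ± 0.04 (adjusted p = 0.0455), and lost the call without any 1 of the 8 libraries (0.0626 to 0.258) and with DESeq2 (0.0881), total-count scaling (0.0584), the replicate number as a block (0.0565) or the knock-out libraries alone (0.0813). Ccna2, Ccnb1 and Cdk1 were at -0.12, -0.09 and -0.12, none of them called. Cdc25b and Cdc25c, phosphatases that activate CDK1, were at -0.02 and 0.01. The 5 checkpoint and 7 kinetochore genes lay between -0.14 (Bub3) and 0.14 (Cenpe), with 0 called by edgeR, DESeq2 or limma-voom. At an unadjusted p under 0.05, 3 checkpoint genes were lower, and among kinetochore genes 1 was lower and 1 higher. Pttg1 was at 12.5 and 12.6 CPM with CHIR99021, against 12.5 and 12.5 CPM with DMSO, a log2 fold change of 0.00 ± 0.08. Without knock-out CHIR99021 replicate 1 the called members of this comparison were 2, Cdc20 and Aurkb, and without replicate 2 they were Cdc20 and Plk1.

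The difference between the lines in their response to CHIR99021 was tested by itself, as the response of knock-out cells minus that of parental cells. It was called for 2 of 38 members, beside 6.13% of all genes. Of all genes 2.91% had a lower response in knock-out cells and 3.22% a higher one. Of the 15 members that fell in either line, 4 were called in both. Cdc20 responded more negatively in knock-out cells, by -0.29 ± 0.06 on the log2 scale (adjusted p = 0.0217): it was at 244 and 238 CPM with CHIR99021 and 243 and 255 CPM with DMSO in parental cells, where the groups overlapped. This call was lost without parental DMSO replicate 1 (0.1), parental CHIR99021 replicate 1 (0.0876), knock-out DMSO replicate 1 (0.0722) or knock-out CHIR99021 replicate 2 (0.106). For Ect2 the difference was 0.25 ± 0.06 (adjusted p = 0.0441). Ect2 was at 210.3 and 219 CPM with CHIR99021 and 218 and 221 CPM with DMSO in knock-out cells, and leaving out any 1 of 7 libraries, all but parental CHIR99021 replicate 2, lost its call (0.0661 to 0.168). The next smallest adjusted p were those of Kif11 at 0.24 ± 0.07 and Kif20a at -0.18 ± 0.05 (0.0715 and 0.0715), then Pttg1 at -0.34 ± 0.10 (0.0809) and Top2a at 0.19 ± 0.06 (0.0935).

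**Figure D3:**
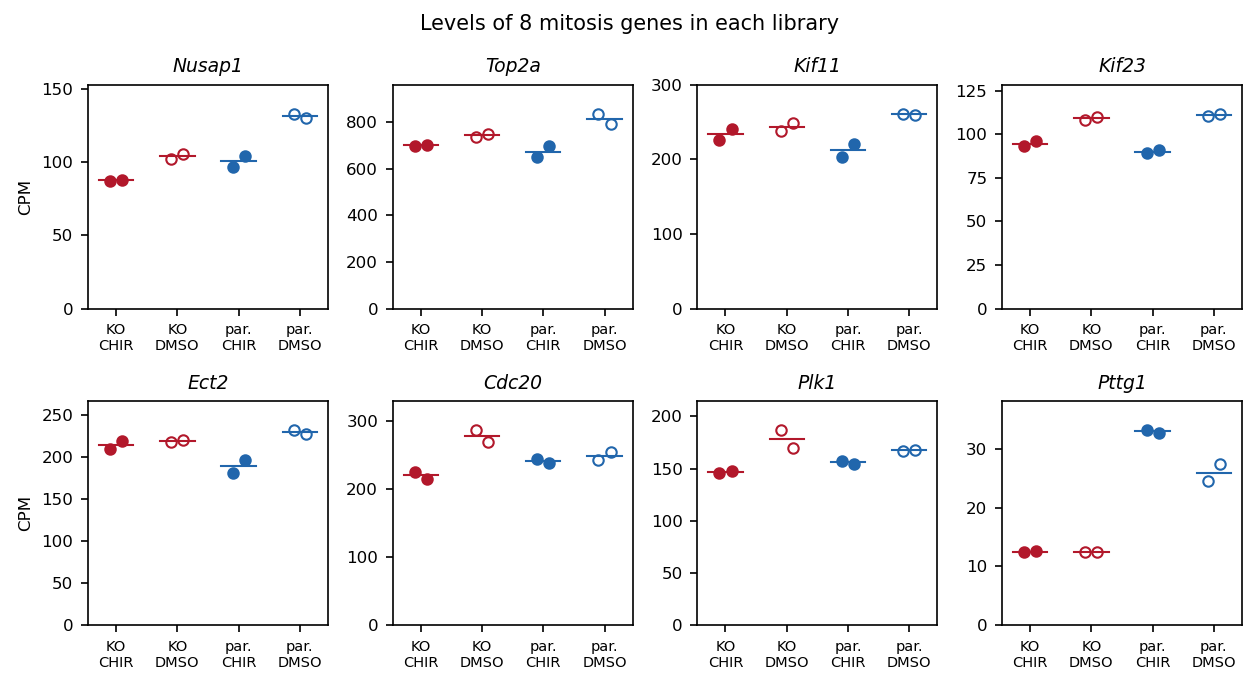
Level in CPM of 8 members in each library, with a line at the mean of the 2 libraries, in knock-out cells (KO, red) and parental cells (par., blue), with CHIR99021 (filled) or DMSO (open). Nusap1 and Kif23 lie lower with CHIR99021 in both lines, Cdc20 in knock-out cells and Ect2 in parental cells, and Pttg1 stays near 12.5 CPM in knock-out cells in both media.

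In the comparison of knock-out with parental cells, members on distal chromosome 2 were set apart, since genes there are lower in the knock-out line as a block. The block was found from other genes alone: from chr2:93833467 to chr2:178078476 (GRCm38), its 708 tested genes that are not members had a median log2 fold change, knock-out over parental, of -0.19 with CHIR99021 and -0.19 with DMSO, against -0.01 in both for the rest of the chromosome. Of the 9 members on chromosome 2 the block holds 8, and Spc25 lies before it. A smaller block on distal chromosome 1, with 269 other genes, ran the other way, with medians of 0.20 with CHIR99021 and 0.17 with DMSO, and holds Nuf2, Cenpf and Nek2. The other 27 members lie outside both, and the other chromosomes were not searched for blocks.

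All 8 members in the chromosome 2 block were called lower in knock-out cells in both media. Of all genes 23.7% were called between the lines with CHIR99021, 12.5% lower and 11.2% higher, and 6.75% with DMSO, 3.62% lower and 3.13% higher. Of the 314 other block genes of at least 20 CPM, 63.1% were called lower with CHIR99021 and 55.4% with DMSO, with medians of -0.21 and -0.21. Bub1 was at 127 and 127 CPM in knock-out cells and 147 and 157 CPM in parental cells with CHIR99021, a log2 fold change of -0.26 ± 0.04 (adjusted p = 0.00155). With DMSO it was at 119 and 122 CPM in knock-out cells and 169 and 161 CPM in parental cells (-0.45 ± 0.04, adjusted p = 0.000319). The knock-out libraries lay below the parental ones in each medium. Of the block's other tested genes at any level, 36.4% had a lower value than Bub1 with CHIR99021 and 11.9% with DMSO. Ranks here and below are among these genes, and ranks among those of at least 20 CPM were not computed. Bub1b, the other checkpoint gene of the block, was at 319.7 and 308 CPM in knock-out cells and 366 and 373 CPM in parental cells with CHIR99021 (-0.23 ± 0.04), and at 345 and 336 CPM in knock-out cells and 402 and 407 CPM in parental cells with DMSO (-0.25 ± 0.04). Its values lay nearer the middle of the block, with 41.7% of the other genes below it with CHIR99021 and 37.6% with DMSO.

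Knstrn, a kinetochore and spindle protein that helps chromosomes align, was at 41.3 and 39.8 CPM in knock-out cells and 54.3 and 54.7 CPM in parental cells with CHIR99021 (-0.43 ± 0.05), and at 43.3 and 41.2 CPM in knock-out cells and 54.8 and 55.6 CPM in parental cells with DMSO (-0.39 ± 0.05). The lines did not overlap, and 16.9% of the block's other genes were below it with CHIR99021 and 15.7% with DMSO. Nusap1, whose per-library levels are given above, was at -0.20 ± 0.05 with CHIR99021 (adjusted p = 0.00905) and -0.34 ± 0.04 with DMSO (adjusted p = 0.00171). Its call with CHIR99021 was lost without parental CHIR99021 replicate 2 (0.0856) or without either knock-out CHIR99021 library (0.0585 and 0.0653). Tpx2 was near the block's median, at -0.18 ± 0.03 with CHIR99021 and -0.18 ± 0.03 with DMSO (adjusted p = 0.00402 and 0.0128). With DMSO it was not called without parental DMSO replicate 1 (0.104), parental DMSO replicate 2 (0.076) or knock-out DMSO replicate 2 (0.0529).

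Aurka, the kinase of the spindle poles, was at 112 and 119 CPM in knock-out cells and 142 and 147 CPM in parental cells with CHIR99021 (-0.33 ± 0.04), and at 125 and 122 CPM in knock-out cells and 149.7 and 144 CPM in parental cells with DMSO (-0.25 ± 0.04). Cdc25b was at 25.8 and 27.1 CPM in knock-out cells and 33.8 and 33.3 CPM in parental cells with CHIR99021 (-0.34 ± 0.06), and at 26.6 and 26.9 CPM in knock-out cells and 31.6 and 34.9 CPM in parental cells with DMSO (-0.31 ± 0.06). Both were lower in every knock-out library than in any parental library of the same medium. Ube2c was at 128 and 123 CPM in knock-out cells and 171 and 172 CPM in parental cells with CHIR99021 (-0.45 ± 0.06, adjusted p = 0.000277), with 15.3% of the other block genes lower. With DMSO it was at 162 and 141 CPM in knock-out cells and 177 and 185 CPM in parental cells (-0.26 ± 0.06, adjusted p = 0.0264). With DMSO, Aurka lost its call without parental DMSO replicate 1 (0.0721). Cdc25b lost it without parental DMSO replicate 2 (0.144), knock-out DMSO replicate 1 (0.0811) or knock-out DMSO replicate 2 (0.0628). Ube2c lost it without parental DMSO replicate 1 (0.0762), parental DMSO replicate 2 (0.155) or knock-out DMSO replicate 2 (0.117), or in a fit of the DMSO libraries alone (0.0527).

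**Figure D4:**
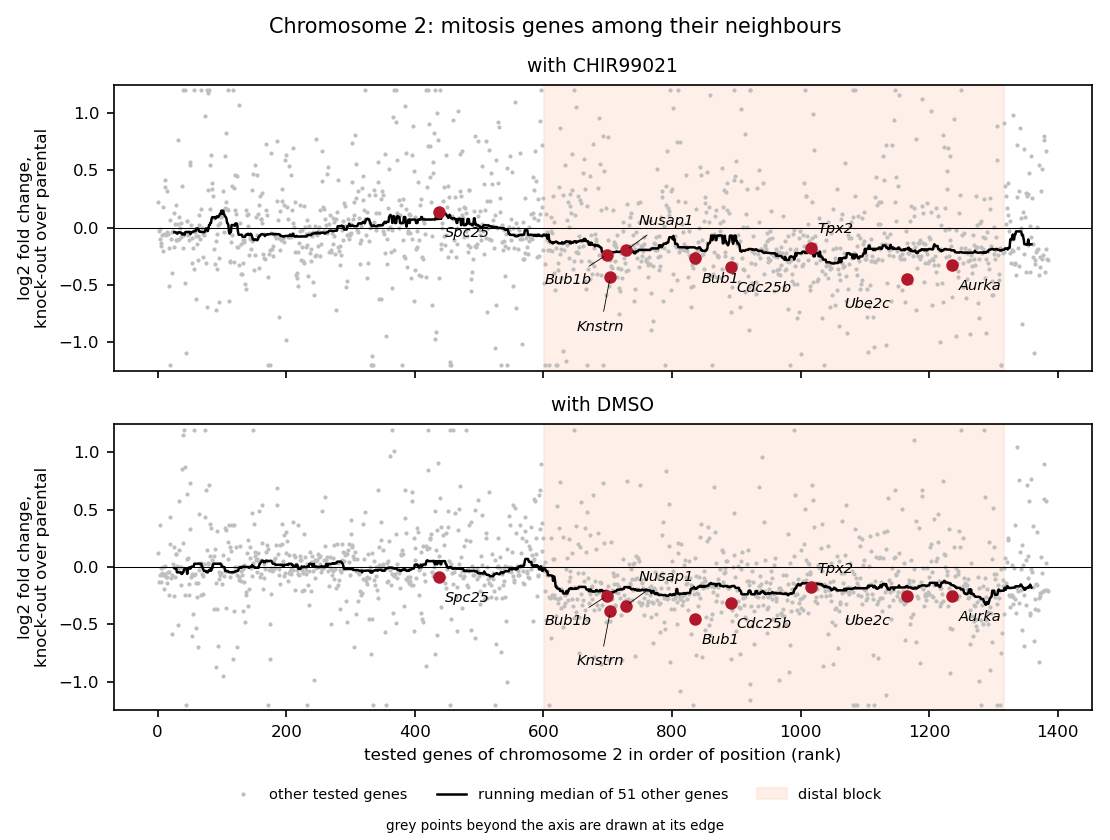
Log2 fold change, knock-out over parental, of the tested genes of chromosome 2 in order of position, with CHIR99021 (top) and DMSO (bottom); grey points are other genes, the black line is their running median over 51 genes, and red points are members. The line drops below 0 in the shaded distal block, and all 8 members there lie below 0 in both panels, while Spc25 lies outside the block.

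Of the 3 members on distal chromosome 1, 1 was called between the lines, and in 1 medium. Cenpf was at 284 and 291 CPM in knock-out cells and 255 and 267 CPM in parental cells with CHIR99021, higher in knock-out cells (0.14 ± 0.04, adjusted p = 0.0346). With DMSO it was at 308 and 308 CPM in knock-out cells and 306 and 287 CPM in parental cells (0.06 ± 0.04, not called). The call was lost without parental CHIR99021 replicate 1 (0.212) or either knock-out CHIR99021 library (0.0891 and 0.174). Nek2 was at 152 and 154 CPM in knock-out cells and 156 and 155 CPM in parental cells with CHIR99021 (-0.02 ± 0.04), and at 178 and 165 CPM in knock-out cells and 161 and 162 CPM in parental cells with DMSO (0.09 ± 0.04). Nuf2, a subunit of the NDC80 complex that grips microtubules, was at 73.5 and 79.5 CPM in knock-out cells and 76.7 and 76.9 CPM in parental cells with CHIR99021 (-0.01 ± 0.06), and at 77.3 and 78.9 CPM in knock-out cells and 79.6 and 71.5 CPM in parental cells with DMSO (0.05 ± 0.06). Its groups overlapped in both media, and neither Nek2 nor Nuf2 was called in either.

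Outside both blocks, 2 of 27 members (7.41%) were called with DMSO, both lower in knock-out cells. This share is near the 6.75% of all genes. The first was Pttg1, at 12.5 and 12.5 CPM in knock-out cells and 24.5 and 27.5 CPM in parental cells with DMSO (-1.06 ± 0.07, adjusted p = 2.22e-05), a ratio of 0.481. With CHIR99021 it was at 12.5 and 12.6 CPM in knock-out cells and 33.2 and 32.8 CPM in parental cells (-1.40 ± 0.07, adjusted p = 2e-07), a ratio of 0.38. No member differed more between the lines, and every knock-out library lay below every parental library. Pttg1 lies on chromosome 11, and of the 10 nearest genes of at least 5 CPM, 5 on each side, with DMSO 0 were lower by edgeR, DESeq2, limma-voom or at an unadjusted p under 0.05, 1 was called higher, and the median was 0.0070. With CHIR99021, 2 of the 10 were lower, the non-coding RNA Platr13 at -1.52 and Ttc1 at -0.20, 1 was higher, the member Hmmr at 0.17, and the median was 0.03. The nearest of the 10, Slu7, was at -0.06 with DMSO and -0.18 with CHIR99021 and was not called. Of the 31-base words of Pttg1 transcripts 0.523% also occur in another gene on the same strand.

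The second was Ccnb1, cyclin B1, at 403 and 405 CPM in knock-out cells and 453 and 454 CPM in parental cells with DMSO (-0.17 ± 0.04, adjusted p = 0.0215). With CHIR99021 it was at 376 and 383 CPM in knock-out cells and 428 and 449 CPM in parental cells (-0.21 ± 0.04, adjusted p = 0.00181). The lines did not overlap in either medium, but with DMSO the call was lost without any 1 of the 4 vehicle libraries (0.0577 to 0.133). Of its 31-base words 27.7% occur in another gene, mostly the pseudogene Ccnb1-ps. No reads were found under that name, which cannot tell a gene without reads from a name missing from the counts. Cdc20 came next by p and was not called with DMSO, at 287 and 269 CPM in knock-out cells and 243 and 255 CPM in parental cells (0.16 ± 0.05, adjusted p = 0.0612), though DESeq2 gave 0.0281. It shares 25.5% of its words with other genes, of which the one that shares most, Gm7856, had at most 2.3 reads in a library.

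With CHIR99021, 9 of the 27 members outside the blocks were called, 7 lower and 2 higher in knock-out cells, beside 23.7% of all genes and 34.3% of genes of at least 20 CPM. The members' share was thus near that of genes of like level. Apart from Pttg1, the smallest p was that of Kif20a, at 214 and 215 CPM in knock-out cells and 251 and 253 CPM in parental cells (-0.23 ± 0.04, adjusted p = 0.00103). Its groups did not overlap, and Cdc23, on the other strand, shares 26.7% of its words. Cdk1 was at 196 and 206 CPM in knock-out cells and 229.6 and 235 CPM in parental cells (-0.21 ± 0.04, adjusted p = 0.00326). Of the cyclin and CDK1 switch genes outside the blocks, Ccnb1, Ccnb2, Cdk1 and Cdc25c were called lower in knock-out cells, and Ccna2 was at -0.04. With Cdc25b of the block this makes 5 of 6. Of all genes 12.5% were called lower, and of genes of at least 20 CPM 20.5%. The trait was not particular to the switch genes, since 19 of 27 S phase genes (70.4%) were called lower in the same comparison. Of the switch genes, Ccnb2 at -0.14 ± 0.04 and Cdc25c at -0.18 ± 0.05 stood near the threshold (adjusted p = 0.0339 and 0.0317), and neither was called by DESeq2 (0.104 and 0.238) or with total-count scaling (0.114 and 0.0796). Other filters on low counts also lost them, at 0.0531 for Ccnb2 with at least 5 CPM in 2 libraries and at 0.0674 for Cdc25c with no filter beyond 1 read.

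Cenpa, the histone variant that marks centromeres, was at 116 and 114 CPM in knock-out cells and 129 and 129.9 CPM in parental cells with CHIR99021 (-0.17 ± 0.04, adjusted p = 0.0146). Ect2, with the levels given above, and Hmmr were higher in knock-out cells, at 0.18 ± 0.05 and 0.17 ± 0.04 (adjusted p = 0.0134 and 0.0153). Hmmr was at 223 and 225 CPM in knock-out cells and 193 and 205 CPM in parental cells, with no overlap. Cenpa was not called with total-count scaling (0.0513). Leaving out parental CHIR99021 replicate 1 lost the calls of Ect2 (0.13), Hmmr (0.138), Cenpa (0.064), Ccnb2 (0.141) and Cdc25c (0.0866). The same 5 were lost without knock-out CHIR99021 replicate 2, at 0.104 (Ect2), 0.0851 (Hmmr), 0.116 (Cenpa), 0.211 (Ccnb2) and 0.147 (Cdc25c). Hmmr, Cenpa, Ccnb2 and Cdc25c were also lost without knock-out CHIR99021 replicate 1 (0.0673, 0.059, 0.0884 and 0.112), and Cenpa, Ccnb2 and Cdc25c without parental CHIR99021 replicate 2 (0.073, 0.105 and 0.126). Ccnb2 and Cdc25c were lost too without parental DMSO replicate 1 (0.051 and 0.0636), and Cdc25c without parental DMSO replicate 2 (0.0535).

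**Figure D5:**
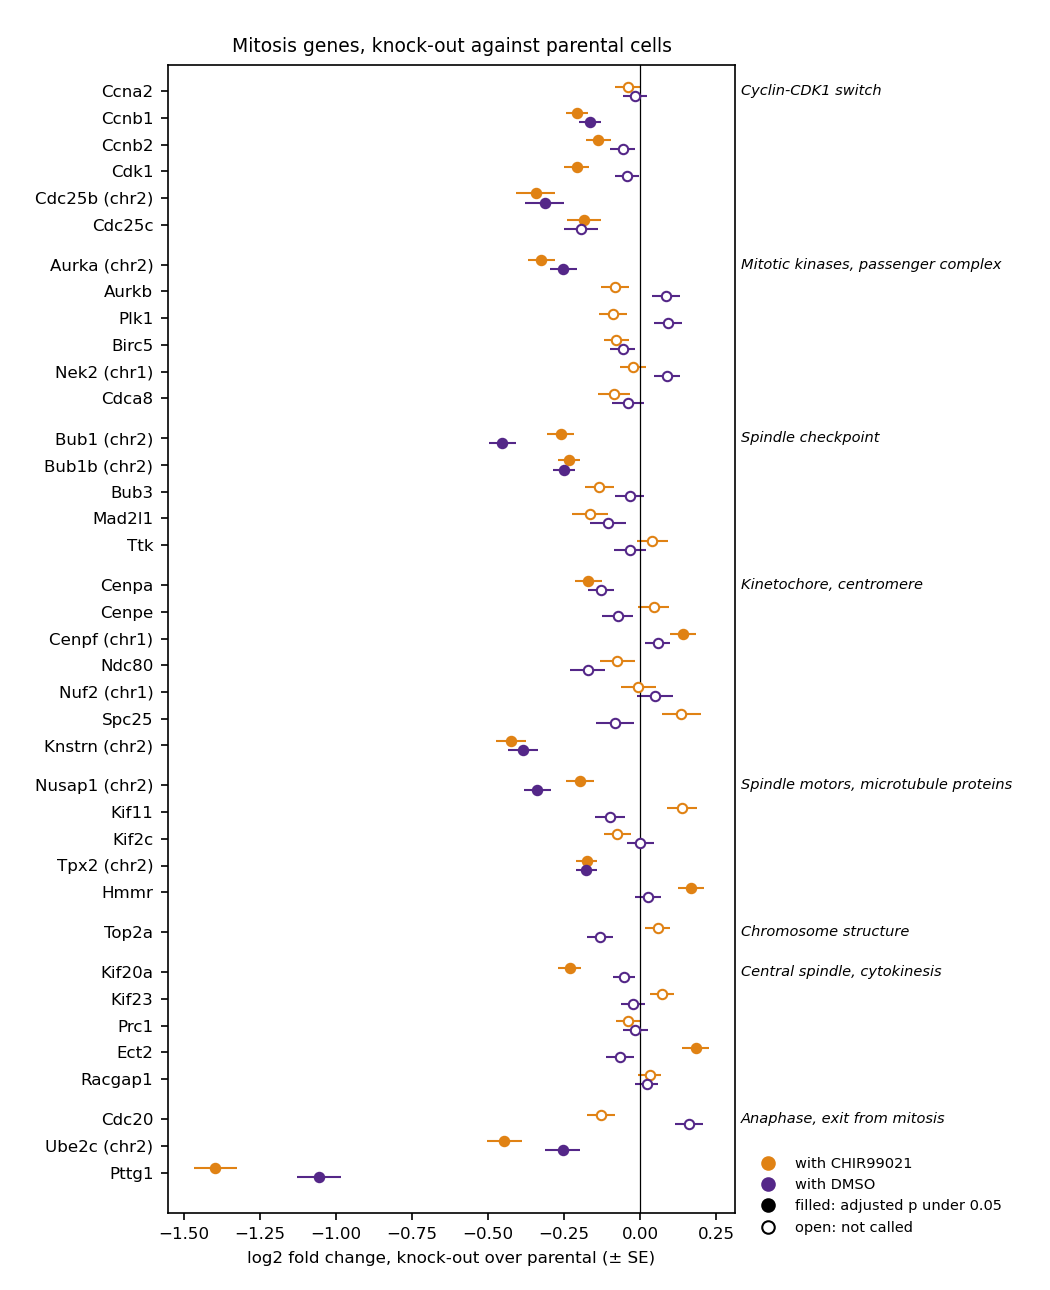
Log2 fold change, knock-out over parental, of the 38 members by role, with CHIR99021 (orange) and with DMSO (purple), with the SE of the fit; filled points have an adjusted p under 0.05, and chr2 or chr1 marks members in a distal block. Pttg1 lies far left of the rest, the 8 chr2 members are filled in both media, and most other points lie near 0.

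Other genes of the same machinery were listed by function. For their counts, of all genes 4.18% were called lower and 2.88% higher with CHIR99021 in knock-out cells, and 10.3% and 9.1% in parental cells. Of genes of at least 20 CPM, 7.72% were called lower and 4.87% higher in knock-out cells, and 14.7% and 12.4% in parental cells. Of 17 subunits and co-factors of the anaphase-promoting complex 1 fell with CHIR99021 in parental cells, Fbxo5, which encodes the inhibitor EMI1, at 96.3 and 97.6 CPM with CHIR99021, against 121 and 118 CPM with DMSO (-0.30 ± 0.04, adjusted p = 0.000463). In knock-out cells 1 of 17 fell, Fzr1, which encodes the co-activator CDH1 (-0.26 ± 0.04, and an adjusted p of 0.0567 without knock-out CHIR99021 replicate 2), and the list's medians were -0.09 in knock-out and -0.05 in parental cells. Of 20 cohesin, separase and condensin genes 0 were called in knock-out cells by edgeR or limma-voom and 1, lower, by DESeq2, with 3 higher and 2 lower at an unadjusted p under 0.05. In parental cells 4 fell (20%) and 1 rose (5%). The 1 was Espl1, separase, the protease that securin inhibits, at 0.14 ± 0.04 (adjusted p = 0.0461). It was not called without any 1 of 6 libraries, all but those of knock-out cells with DMSO (0.0619 to 0.275), with the replicate block (0.0538) or in the parental libraries alone (0.0504). The 4 were all of cohesin or its regulators: Smc3 (-0.20 ± 0.05), Rad21 (-0.16 ± 0.04), the release factor Wapl (-0.16 ± 0.04) and Pds5b (-0.21 ± 0.05). All 4 lost their call without parental CHIR99021 replicate 1, at 0.134 for Smc3, 0.102 for Rad21, 0.102 for Wapl and 0.155 for Pds5b. Without parental DMSO replicate 1, adjusted p was 0.0916 for Smc3, 0.0511 for Rad21 and 0.106 for Wapl, and without parental DMSO replicate 2 it was 0.0802 for Rad21 and 0.137 for Pds5b.

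Of 34 other centromere and kinetochore genes 1 rose (2.94%) and 2 fell (5.88%) in knock-out cells, and 1 rose and 1 fell (2.94% each) in parental cells. None of these shares exceeded that of genes of at least 20 CPM. Those called in parental cells were Hjurp, the chaperone that loads CENP-A, at 0.21 ± 0.04, and Spc24, a subunit of the NDC80 complex, at -0.28 ± 0.06 in knock-out and -0.46 ± 0.06 in parental cells. Spc24 was at 50.1 and 48.7 CPM with CHIR99021 and 63.5 and 56.3 CPM with DMSO in knock-out cells, and at 49.9 and 47.0 CPM with CHIR99021 and 65.3 and 67.6 CPM with DMSO in parental cells. In knock-out cells Spc24 was not called without knock-out DMSO replicate 1 (0.176) or either treated library (0.107 and 0.162). The other 2 called in knock-out cells were Cenpm, a centromere protein (-0.43 ± 0.08), and Zwilch, a subunit of the complex that brings dynein to kinetochores (0.18 ± 0.04). Neither was called without knock-out DMSO replicate 1 (0.135 and 0.246), knock-out CHIR99021 replicate 1 (0.0676 and 0.163) or knock-out CHIR99021 replicate 2 (0.108 and 0.171). Zwilch was not called either without 3 of the parental libraries, all but CHIR99021 replicate 1 (0.0523 to 0.0556), or in the knock-out libraries alone (0.0527).

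Of 38 other spindle, centrosome and cytokinesis genes 3 fell (7.89%) in knock-out cells, and 7 fell (18.4%) and 5 rose (13.2%) in parental cells. These shares were near the 7.72%, 14.7% and 12.4% of genes of at least 20 CPM. Called in parental cells were, among others, Aspm, a spindle pole protein (-0.21 ± 0.04), Cdca2, a phosphatase subunit of anaphase chromatin (-0.26 ± 0.04), the proliferation marker Mki67 (-0.20 ± 0.04) and Ccnf, cyclin F (0.20 ± 0.04). The other 4 that rose there were the kinesins Kif4 (0.19 ± 0.04) and Kif18b (0.23 ± 0.05), Pimreg (0.23 ± 0.07) and Cdc25a, a phosphatase that activates cyclin-dependent kinases (0.14 ± 0.04). The 3 that fell in knock-out cells were Kif22, a kinesin that binds chromosomes (-0.16 ± 0.04), Incenp, the scaffold of the chromosomal passenger complex (-0.17 ± 0.04), and Cdca3, a mitotic entry factor (-0.20 ± 0.05), which fell in parental cells too (-0.17 ± 0.05). Aspm was not called without parental CHIR99021 replicate 1 (0.065), nor Ccnf, Kif4, Kif18b, Pimreg and Cdc25a without parental DMSO replicate 1 (0.0654, 0.0757, 0.112, 0.103 and 0.0907). Kif18b, Pimreg and Cdc25a also lost the call without parental CHIR99021 replicate 1 (0.0805, 0.195 and 0.107). Pimreg lost it without parental DMSO replicate 2 (0.152), Cdc25a without any 1 of 6 libraries, all but those of knock-out cells with DMSO (0.0634 to 0.208), and DESeq2 called neither (0.136 and 0.13). Cdc25a was not called with no filter beyond 1 read (0.0924) or in the parental libraries alone (0.0549).

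In knock-out cells Kif22, Incenp and Cdca3 each lost their call without knock-out DMSO replicate 1 (0.189, 0.147 and 0.189), knock-out CHIR99021 replicate 1 (0.163, 0.0904 and 0.0642) or replicate 2 (0.15, 0.194 and 0.212). Incenp lost it too without knock-out DMSO replicate 2 (0.0533), and Kif22 without either parental DMSO library (0.0501 and 0.0511). In the knock-out libraries alone, adjusted p was 0.0713 for Kif22 and 0.0585 for Incenp. In parental cells Cdca3 lost its call without any 1 of the 4 parental libraries (0.0612 to 0.154).

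Of 23 genes of MuvB, E2F and B-Myb, the regulators of mitotic transcription, 4 fell (17.4%) in knock-out cells, and 3 fell (13%) and 1 rose (4.35%) in parental cells. In parental cells both shares lay under those of genes of at least 20 CPM. E2f8, a repressor of E2F targets, was at 25.7 and 23.5 CPM with CHIR99021 and 36.9 and 36.5 CPM with DMSO in knock-out cells (-0.58 ± 0.08), and at 25.8 and 29.9 CPM with CHIR99021 and 41.3 and 40.0 CPM with DMSO in parental cells (-0.55 ± 0.07). Tfdp2, a dimer partner of E2F proteins, was at -0.51 ± 0.05 in knock-out cells and -0.52 ± 0.05 in parental cells. Both were called in both lines, and their libraries did not overlap between treatments. Foxm1, an activator of G2 and mitosis genes, was at -0.10 ± 0.04 in knock-out cells and 0.04 ± 0.04 in parental cells and was not called in either. Mybl2, B-Myb, fell in parental cells (-0.20 ± 0.04, adjusted p = 0.00645) and was not called in knock-out cells (-0.03 ± 0.04). Without parental DMSO replicate 2 or parental CHIR99021 replicate 2, its adjusted p in parental cells was 0.052 and 0.0558. Lin37, a MuvB subunit, was at 0.26 ± 0.08 in parental cells (adjusted p = 0.0496) and lost its call without any 1 of 6 libraries, all but the 2 of knock-out cells with DMSO (0.0626 to 0.248), and with DESeq2 (0.274), limma-voom (0.0612), no filter beyond 1 read (0.0638), the replicate block (0.0573) or the parental libraries alone (0.0504). E2f4 was at -0.21 ± 0.04 in knock-out cells (adjusted p = 0.02) and at -0.06 ± 0.04 in parental cells. Nfyc, a subunit of NF-Y, was at -0.22 ± 0.05 in knock-out cells (adjusted p = 0.0251). The calls of both were lost without knock-out DMSO replicate 1 (0.152 and 0.166), knock-out CHIR99021 replicate 1 (0.0669 and 0.132) or knock-out CHIR99021 replicate 2 (0.157 and 0.15), and that of Nfyc with DESeq2 (0.0688) or in the knock-out libraries alone (0.0512).

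Among 8 CDK inhibitor and p53 genes, Cdkn1a, which encodes p21, was at 38.2 and 35.8 CPM with CHIR99021 and 28.8 and 28.3 CPM with DMSO in knock-out cells (0.37 ± 0.06), and at 85.2 and 79.3 CPM with CHIR99021 and 25.1 and 26.3 CPM with DMSO in parental cells (1.68 ± 0.06). The rise in knock-out cells was not called without knock-out CHIR99021 replicate 1 (0.0638). Cdkn1c, which encodes p57, fell by 0.66 on the log2 scale in knock-out cells and by 1.69 in parental cells. Trp53 fell in both lines, at -0.23 ± 0.05 in knock-out cells and -0.30 ± 0.05 in parental cells, and Cdkn1b, p27, fell in parental cells (-0.34 ± 0.08). Trp53 lost its call in knock-out cells without knock-out DMSO replicate 1 (0.13) or either treated library (0.0885 and 0.131). Cdkn1b lost it without parental DMSO replicate 2 (0.111) or either treated parental library (0.0619 and 0.0726).

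Of 27 S phase genes 7 fell in knock-out cells and 0 rose by edgeR, DESeq2, limma-voom or at an unadjusted p under 0.05, with a median of -0.12, and 3 fell and 3 rose in parental cells, with a median of 0.02. Mcm2 and Mcm6, subunits of the replicative helicase, fell in both lines, at -0.19 and -0.27 in knock-out cells and -0.17 and -0.14 in parental cells. In knock-out cells Mcm2 was not called without knock-out DMSO replicate 1 (0.156) or either treated library (0.117 and 0.156), or in the knock-out libraries alone (0.0637). In parental cells Mcm2 lost its call without any 1 of the 4 parental libraries and Mcm6 without 3 of them, all but parental DMSO replicate 2, with adjusted p of 0.093, 0.104, 0.0753 and 0.106 for Mcm2 and of 0.241, 0.16 and 0.0588 for Mcm6. Ccne1, cyclin E1, fell by 0.40 on the log2 scale in knock-out cells (adjusted p = 0.000633) and by 0.14 in parental cells (adjusted p = 0.0438). The fall in parental cells was not called without any 1 of 6 libraries, all but those of knock-out cells with DMSO (0.0555 to 0.286), with DESeq2 (0.0576), the replicate block (0.0568) or the parental libraries alone (0.0505). Chaf1b, a subunit of the chromatin assembly factor, rose in parental cells (0.25 ± 0.05). Rrm2, a subunit of ribonucleotide reductase, rose there too (0.13 ± 0.04), but not without any 1 of the 4 parental libraries or without knock-out CHIR99021 replicate 2 (0.0928, 0.196, 0.0641, 0.132 and 0.0511). Mcm4, another helicase subunit, was higher at 0.13 ± 0.04, but was not called without either parental DMSO library (0.166 and 0.115) or parental CHIR99021 replicate 2 (0.168). The part that any of these genes had in the values of the 38 members was not tested.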

How the data were processed

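RNA libraries (TruSeq Stranded mRNA, per the labels' protocols) were counted with kallisto on GRCm38.p4, per the submitters' processing notes. The deposited table holds the authors' estimated counts per gene, not normalized. The transcript set, kallisto's version and its strand setting are not given in the sources used here. Of the 38 members 12 overlap a tested gene on the other strand, and their reads could be mixed if strand was not used. Each estimated count was rounded.

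The filterByExpr function of edgeR (minimum count 10, minimum total 15) left 17739 of 48440 genes. They were scaled by TMM and tested by edgeR's quasi-likelihood test (edgeR 4.0.16, limma 3.58.1, R 4.3.3) with 1 mean for each of the 4 groups and 5 contrasts, with adjusted p under 0.05 (Benjamini-Hochberg) as threshold and 4 residual degrees of freedom. The scripts were also run on simulated data, and the outcome is not given here or used for any result. Gene positions are those of GENCODE on GRCm38, and RefSeq promoters are those of GRCm38.p6. Blocks were searched on chromosomes 1 and 2 alone, among non-members, over runs of at least 25 neighbouring tested genes. The value used was the mean of the 2 log2 fold changes, knock-out over parental. The run chosen had the smallest summed absolute deviations from the medians inside and outside it. Where that run was the proximal bulk of the chromosome, the genes after it were taken as the block.

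Members and lists were chosen with earlier results of these data known. Values in every library are given for the 12 members with the smallest p with CHIR99021 in parental cells, for members called in the knock-out response or in the difference between the lines, for members in a block, and for 3 more in each comparison of the lines. Of each other list at most 4 called genes are named, by p, and Cdkn1a, Foxm1, Mybl2 and E2f4 always. Hmmr, Cdk1, Cenpa, Thy1 and, in lists with 5 or fewer calls in a direction, Fzr1, Espl1, Cenpm, Zwilch, Kif4, Kif18b, Kif22, Pimreg, Cdc25a, Incenp, Cdca3, Nfyc, Ccne1 and Mcm4 were added after their values were seen. Alternatives were DESeq2 1.42.0, limma-voom, other scalings, filters and thresholds, a replicate block, fits of the compared groups alone, and leaving out each library.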

Additional observations from a re-analysis of the deposited data

Results flagged for a closer look

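The response to CHIR99021 differed between the lines, by edgeR's test of the difference (knock-out minus parental, log2), in 2 members. Cdc20 was at -0.29 and Ect2 at 0.25, both described above with the libraries that decide their calls. Among the listed genes that are not members, 9 of those named differed, beside 6.13% of all genes. Most were named for a call with CHIR99021, so the 9 are not a share of the lists. Over whole lists, 2 of 34 other centromere and kinetochore genes and 3 of 27 S phase genes were called, all lower. Of 38 other spindle genes 3 were lower and 1 higher, and of 8 CDK inhibitor and p53 genes 1 was lower and 1 higher. The other lists by function had 0 by edgeR. Cdkn1a was at -1.30 and Cdkn1c at 1.04, with responses of the same sign in both lines. Hjurp was at -0.21 (adjusted p = 0.0432), Ccnf at -0.26 (0.0228) and Chaf1b at -0.33 (0.0242), each of which rose in parental cells and was not called in knock-out cells (0.00, -0.06 and -0.07). Leaving out 1 library lost the call of Hjurp for any of the 8, of Chaf1b for 7 and of Ccnf for 6, with adjusted p up to 0.182, 0.123 and 0.112. No library lost those of Cdkn1a and Cdkn1c. Kif18b was at -0.31 and Pimreg at -0.38, both called higher in parental cells and not called in knock-out cells. Cenpm was at -0.54, called lower in knock-out cells and not called in parental cells, and Ccne1 at -0.26, lower in both. These 4 calls were lost without parental DMSO replicate 1 (0.134, 0.0937, 0.0775 and 0.104) and without 3 to 5 other libraries, and DESeq2 called neither Kif18b (0.0576) nor Pimreg (0.137).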

How the results depend on the processing

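No called value turned its direction under any alternative run. The counts of called members moved by over 1.5 times as follows. At an adjusted p under 0.01, called members numbered 4 for CHIR99021 in knock-out cells, 6 for knock-out against parental with DMSO (5 in the chromosome 2 block and 1 outside the blocks), 4 outside the blocks with CHIR99021, and 0 for the difference between the lines. With a log2 fold change of over 0.32 as well they numbered 1 for CHIR99021 in knock-out cells and 2 in parental cells, 5 for knock-out against parental with CHIR99021 (4 in the block and 1 outside) and 4 with DMSO (3 in the block and 1 outside), and 0 for the difference. DESeq2 called 4 members outside the blocks with DMSO and 4 for the difference, and testing all genes with at least 1 read called 5 and 4. The cause was not tested. Leaving out 1 library gave 2 to 9 members for CHIR99021 in knock-out cells and 7 to 10 in parental cells. It gave 11 to 20 for knock-out against parental with CHIR99021 (7 to 8 in the block, 4 to 11 outside), 6 to 10 with DMSO (5 to 8 in the block, 1 to 2 outside), and 0 to 4 for the difference. The arm that loses a library then holds 1, assumed to vary like the others. The block search was run once, with runs of at least 25 genes. The blocks held 269 and 708 other genes, with 937 and 667 outside them. A minimum of 50 or 100 genes would therefore return the same borders, so their stability was not tested. The fit of the compared groups alone holds all libraries for the difference and is the same as that reported. Scaling by total counts moved the median of all genes by at most 0.0359.

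Same-numbered libraries did not deviate together (correlations of -0.045, 0.056, -0.064 and 0.116), so the numbers are taken as names. With the replicate number as a block, 9 members were called for CHIR99021 in knock-out cells and 10 in parental cells, 19 for knock-out against parental with CHIR99021 and 10 with DMSO, and 3 for the difference. Members had at least 326 reads in every library, and the effect of depth on their calls was not tested.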
